A study of Caenorhabditis elegans with 2 samples.

Results

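The genes described here encode small secreted defence peptides and saposin-like proteins of the nematode Caenorhabditis elegans. They were chosen by name: each gene with the symbol abf, cnc, fip, fipr or spp followed by a number, or nlp-27 to nlp-34, that had at least 1 probe set naming that gene alone. This gave 51 genes, read by 57 probe sets, of 17118 genes on the array. A RefSeq gene table of assembly WBcel235 holds 91 genes with such symbols, so 40 are not described here. By family, 7 of 8 nlp genes, 8 of 11 cnc genes, 13 of 36 fip and fipr genes, 5 of 6 abf genes and 18 of 30 spp genes were measured. A further 11 probe sets that name one of these genes together with another gene were left out.

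The study exposed synchronized wild-type worms of strain N2 to anatase nanoparticles (a crystal form of titanium dioxide, TiO2) in S-medium, a liquid medium, in the dark. RNA came from 1 sample of worms with anatase at 500 μg/ml and 1 sample of worms without it, both called replicate 3; all worms had been maintained at 20°C on agar seeded with E. coli OP50. Other replicates were not analysed here, and worm age and exposure time are not given in the sources used. Whole worms were used, so fewer cells of a type and less RNA per cell cannot be told apart. No replicate error and no test can be given, because every difference below sets 1 array against 1 other array.

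Antimicrobial peptides are short proteins, usually secreted, that damage the membranes or walls of microbes, and they are part of the innate immunity that nematodes rely on. The nlp and cnc genes (caenacins) are transcribed mainly in the epidermis, where fungal infection and wounding raise nlp genes through a p38 kinase cascade and cnc-2 through the TGF-beta ligand DBL-1. The spp genes encode saposin-like proteins, some of which, the caenopores, form pores in bacteria in the gut; for many spp, fip and fipr genes no antimicrobial activity of the product is established.

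Most of these genes had lower signal in the worms exposed to anatase. Of the 51 genes, 39 were lower and 12 higher, and their median log2 difference, anatase minus control, was -0.40. Over all 17118 genes, 54.7% were lower and the median was -0.04. All differences are on the log2(intensity + 16) scale, which understates the folds of dim genes. At least 2-fold lower were 6 of the 51 genes (11.8%), against 3.48% of all genes: cnc-1, cnc-2, cnc-3, cnc-7, fip-5 and spp-14. At least 2-fold higher was 1 gene, cnc-5, against 1.58% of all genes. The families differed in size of difference: the medians were -0.92 for cnc, -0.49 for fip and fipr, -0.47 for nlp, -0.20 for abf and -0.11 for spp, and all 5 kept their sign when the arrays were scaled to a common median, loess-corrected or quantile-normalized.

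**Figure D1:**
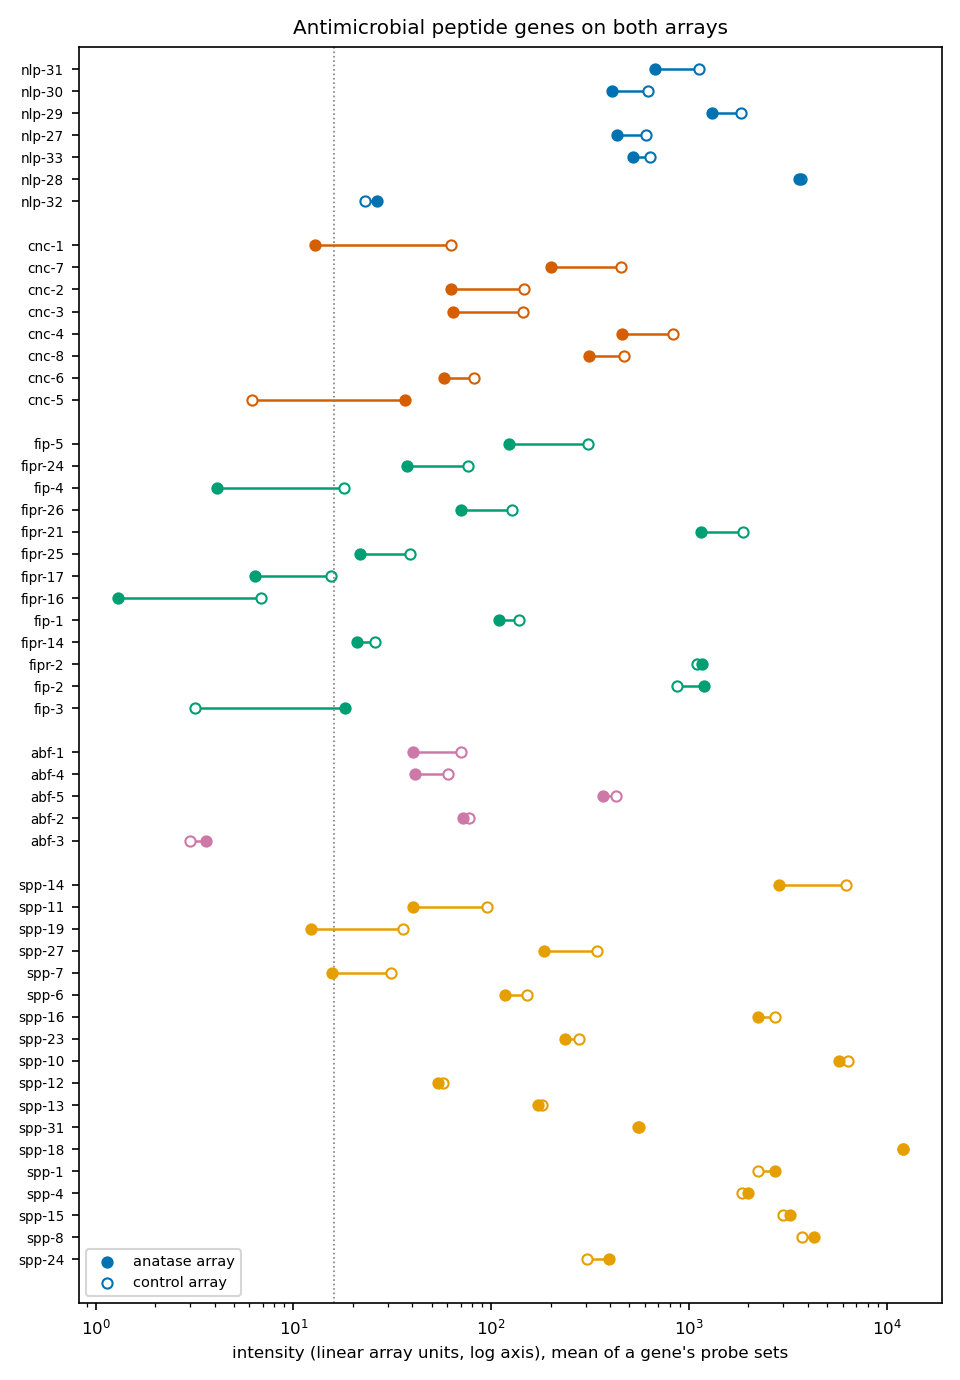
Intensity of each of the 51 genes on the anatase array (filled) and the control array (open), on a log axis, by family; within a family the lowest difference is at the top, and the dotted line marks an intensity of 16. The filled point lies left of the open one for 39 genes.

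Dim genes carry more noise, so the genes were also read by brightness. The genes of the array were split into 4 equal groups by their mean log2 value over both arrays, and the SD of the differences over all genes was 0.65 log2 units in the dimmest group, 0.46 and 0.33 in the middle groups and 0.24 in the brightest. The members fell into these groups as 10, 12, 13 and 16 genes, from dim to bright. Their median differences were -0.29, -0.67, -0.33 and -0.09, beside -0.08, -0.15, -0.00 and 0.02 for all genes of the same groups. In the second dimmest group all 12 members were lower, where 64.2% of all genes were. In the second brightest group 11 of 13 members were lower, where 50.4% of all genes were. In the brightest group the count was 10 of 16, where 46.5% of all genes were lower. In the dimmest group it was 6 of 10, close to the 58% of all genes there. Of the 51 genes, 3 stood below an intensity of 16 on both arrays, 4 on the anatase array alone and 2 on the control array alone.

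At a threshold of 1.5-fold, which is wide beside the spread of bright genes, 16 of the 51 genes were lower and 2 higher, against 11.2% and 5.63% of all genes. Among the 29 genes at or above the median brightness, 21 were lower and 3 at least 2-fold lower, where 48.4% and 0.409% of all genes that bright were. Of the same 29, 7 were at least 1.5-fold lower and 0 higher, where 2.98% and 1.92% of all genes that bright were. These 7 were cnc-4, cnc-7, fip-5, fipr-21, nlp-31, spp-14 and spp-27, so each family but abf is among them. The abf family had only 1 gene that bright. Of the 7, cnc-7, fip-5, fipr-21 and nlp-31 were read only by probe sets able to hybridise with similar transcripts, described below.

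**Figure D2:**
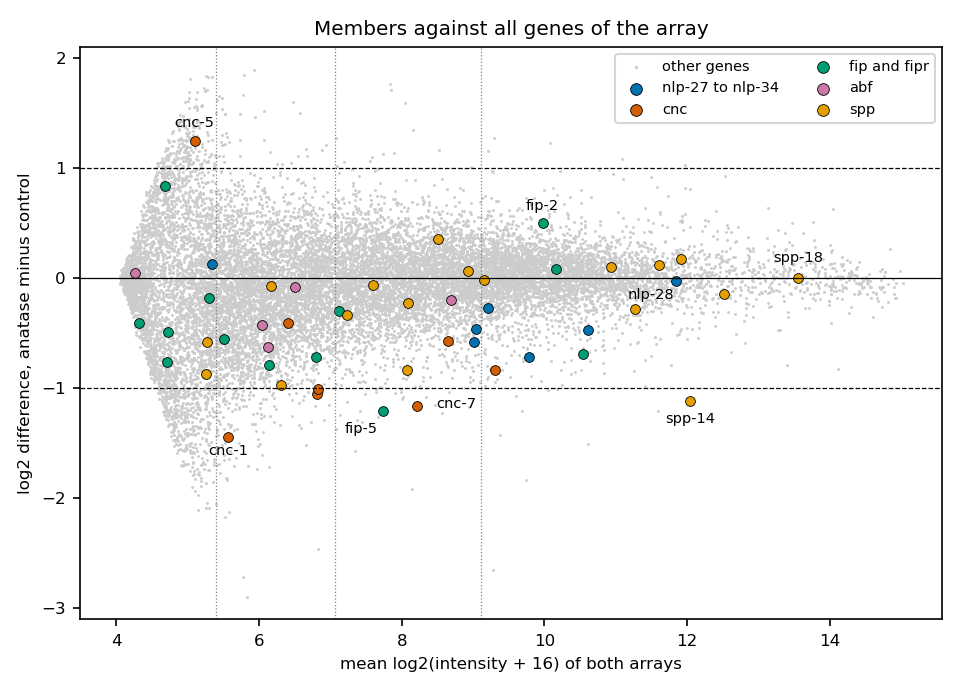
Log2 difference, anatase minus control, of each gene against its mean log2(intensity + 16) over both arrays; coloured points are the 51 members by family, grey points all other genes, dashed lines 2-fold, dotted lines the borders of the 4 brightness groups. Members lie mostly below 0, with spp-14 the only bright spp gene past 2-fold and cnc-5 the only member past 2-fold above 0.

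The nlp genes encode small glycine- and aromatic-rich peptides of the epidermis. nlp-31, whose peptide has antifungal activity, stood at an intensity of 673 on the anatase array and 1118 on the control array, a log2 difference of -0.72. nlp-30 stood at 408 with anatase and 619 without, a difference of -0.58. nlp-29, the gene most used as a reporter of fungal infection and wounding, stood at 1315 with anatase and 1827 without, a difference of -0.47. nlp-27, in the same run of genes, gave 432 with anatase and 604 without, also a difference of -0.47. The 4 genes were thus lower by similar amounts while none passed 2-fold. nlp-33, which lies elsewhere, had 519 with anatase and 632 without, a difference of -0.28. nlp-28, the brightest of the family, read nearly alike on both arrays, with 3622 with anatase and 3680 without; its difference of -0.02 turned to 0.03 with the arrays scaled to a common median. The only nlp gene above 0 was nlp-32, a dim gene at 26.6 with anatase and 22.9 without. It was also the only one read by a probe set specific in type: the other 6 were read by the 2 kinds of probe set that Affymetrix marks as able to hybridise with similar transcripts, called shared here, so the values of these similar genes may hold signal of each other.

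The cnc genes gave the largest differences. cnc-2, the caenacin known to respond to fungal infection, stood at 62.3 with anatase and 146 without, a difference of -1.05. cnc-3 stood at 63.8 with anatase and 145 without, a difference of -1.01. cnc-1 was dimmer, at 12.8 with anatase and 62.4 without, and had the lowest difference of all members, -1.44. These 3 neighbouring genes were all past 2-fold, where 3.23% of all genes in their brightness group were at least 2-fold lower. Each was read by 1 shared probe set, so their values may hold signal of each other and may not be 3 separate readings. cnc-2 and cnc-3 read nearly alike on both arrays. Under each of the 3 scalings cnc-2 (-0.996 to -0.964) and cnc-3 (-0.96 to -0.92) no longer passed 2-fold. cnc-4, in the same run but read by a probe set that is not shared, was the brightest cnc gene, with 458 with anatase and 830 without, a difference of -0.84. cnc-7 lies elsewhere in the genome and was read by 2 shared probe sets. They gave 114 and 289 with anatase, against 303 and 609 without it, and differences of -1.29 and -1.04. Both probe sets of cnc-7 thus passed 2-fold, where 0.584% of all genes in their brightness group were at least 2-fold lower. cnc-8 stood at 312 with anatase and 471 without, a difference of -0.57, and cnc-6 was the least changed of the lower cnc genes, at -0.41. cnc-5 went the other way, at 36.8 with anatase and 6.20 without, a difference of 1.25. Its control value was near the bottom of the array, and in its brightness group 5% of all genes were at least 2-fold higher.

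Fungus-induced proteins (fip) and their relatives (fipr) were named after transcripts raised by fungal infection. fip-5 stood at 124 with anatase and 308 without, a difference of -1.21, the only gene of this family past 2-fold. fipr-21, its neighbour and the brightest fipr gene on the control array, stood at 1152 with anatase and 1867 without, a difference of -0.69. fipr-24 was dim, at 37.5 with anatase and 76.4 without, a difference of -0.79. fip-1 read 110 with anatase and 139 without, a difference of -0.30. Bright genes of this family did not all share the direction. fip-2 was higher with anatase in both of its probe sets, which read 1358 and 1025 with anatase, against 1110 and 621 without it, differences of 0.29 and 0.71. fipr-2 was nearly equal, at 1161 with anatase and 1094 without, a difference of 0.08. fip-3 was higher by 0.84 at the floor of the array, with 18.3 with anatase and 3.20 without. The other 6 genes of the family, fip-4, fipr-14, fipr-16, fipr-17, fipr-25 and fipr-26, were dim and all lower, between -0.76 and -0.18, though fipr-14 stood at 0.00 after the loess correction. Of the 13 genes, 9 were read only by shared probe sets.

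The abf genes encode defensin-like peptides with paired cysteines; the ABF-2 peptide kills bacteria in vitro. abf-5 was the only one at or above the median brightness, with 369 with anatase and 426 without, a difference of -0.20. abf-1 stood at 40.2 with anatase and 70.6 without, a difference of -0.62, and abf-4 at 41.0 with anatase and 60.7 without, a difference of -0.43. abf-2, the neighbour of abf-1, was nearly equal, at 72.2 with anatase and 77.6 without, a difference of -0.09 that turned to above 0 after loess or quantile scaling (up to 0.04). abf-3 was at the floor of the array, below 4 on both arrays. None of the 5 passed 2-fold.

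The spp genes were the brightest family, with 14 of 18 genes at or above the median brightness, and most of the bright ones differed little. spp-18, the brightest member, gave 12057 with anatase and 12036 without, a difference of 0.00. spp-10 was read by 3 probe sets, which gave 7690, 5513 and 4027 with anatase, against 8505, 6146 and 4449 without it. Their differences lay between -0.16 and -0.14, the closest agreement among the 5 members with several probe sets. spp-8, which lies near spp-10 in the genome, was higher in both of its probe sets, by 0.07 and 0.27. spp-15 and spp-4 were at 0.11 and 0.10, and spp-31 at -0.02, which turned to 0.04 with the arrays scaled to a common median. spp-1, a caenopore of the intestine that kills bacteria, had 1 bright shared probe set, with 5441 with anatase and 4428 without, a difference of 0.30. Its other probe set was dim, with 29.1 with anatase and 34.7 without, and read -0.17, so the direction of spp-1 depends on the probe set.

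spp-14 stood apart from this. It was among the brightest members, at 2854 with anatase and 6201 without, a difference of -1.12, where 0.234% of all genes in the brightest group were at least 2-fold lower. Its probe set is not of the shared types. spp-27 stood at 185 with anatase and 343 without, a difference of -0.84, and its neighbour spp-19 at 12.3 with anatase and 35.9 without, a difference of -0.87. spp-11 was dim, at 40.4 with anatase and 94.8 without, a difference of -0.97. spp-16 read 2225 with anatase and 2711 without, a difference of -0.28. Smaller lower values were read for spp-6 (-0.33), spp-23 (-0.22) and spp-13 (-0.07). Above 0, the furthest was spp-24, with 395 with anatase and 305 without, a difference of 0.36. spp-7 and spp-12, both dim, were at -0.58 and -0.07, the second of which turned to above 0 after loess or quantile scaling (up to 0.09). Among the 14 brighter spp genes 8 were lower and the median was -0.04, while among the 15 brighter genes of the other 4 families 13 were lower and the median was -0.47. The families also differ in probe set type. Read only by shared probe sets were 6 of 7 nlp, 4 of 8 cnc and 9 of 13 fip and fipr genes. For abf it was 1 of 5 and for spp 1 of 18. Among genes read only by other types the medians were -0.49 for cnc, -0.42 for fip and fipr, -0.31 for abf and -0.15 for spp. The only such nlp gene was at 0.13. The contrast between families was not tested, since each group is 1 array, and family and probe set type were not separated.

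How closely probe sets of the same gene agree was read from all genes with exactly 2 probe sets. Both probe sets of a gene read the same 2 RNA samples. Their spread thus leaves out variation between samples or arrays and is no replicate error. There were 2496 such genes, and their pairs gave an SD of 0.35 log2 units for a single probe set. From the dimmest to the brightest group this SD was 0.57, 0.47, 0.30 and 0.19. Of the 51 members 46 rested on 1 probe set, and of the 5 with several, 4 had all probe sets in 1 direction, spp-1 being the exception; of the 2496 genes, 57.3% had both in 1 direction. The 21 members read only by shared probe sets had a median of -0.58, with 19 lower and 5 at least 2-fold lower. Over all 3500 genes read only that way the median was -0.00, 50.6% were lower and 1.57% were at least 2-fold lower. The 27 members read only by probe sets of other types had a median of -0.28, beside -0.05 for all such genes. Of the 27, 19 were lower and 1 (3.70%) at least 2-fold lower, where 56% and 4.39% of all such genes were. Lower medians of the members were thus read by both kinds of probe set. A share past 2-fold above that of all genes was read by the shared kind only. There cnc-1, cnc-2, cnc-3, cnc-7 and fip-5 were at least 2-fold lower, and these had shared probe sets alone.

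Members lie in runs along the genome, and neighbours read alike in part. In the order of protein-coding genes of the RefSeq table, 23 of the 51 genes stood in 8 runs, taken as members no more than 5 places apart. In the run of cnc-1, cnc-5, cnc-4, cnc-3 and cnc-2, 4 of 5 genes were lower, cnc-5 being the exception. In the run of nlp-31, nlp-30, nlp-29, nlp-28 and nlp-27, all 5 were lower, with nlp-28 close to 0. fip-5, fipr-21 and cnc-8, which belong to different families by name, stand side by side, and all 3 were lower. In these runs cnc-1, cnc-2, cnc-3, fip-5, fipr-21 and all 5 nlp genes were read by shared probe sets alone. Their values may hold signal of similar neighbours, so likeness within a run may not be that of separate readings. Over the 8 runs, 19 of 23 members (82.6%) were lower. So were 21 (61.8%) of the 34 measured non-members between the members or among the 3 next genes on each side. Over all genes 54.7% were lower, with 58% in the dimmest group and 64.2% in the second dimmest. The counts of single runs below are small beside these shares. Directly beside the cnc and fip-5 runs the non-members were mostly above 0, in 3 of 4 and 4 of 5 genes. Beside the nlp run 4 of 5 were below 0, and all 5 were in the dimmest group. Some genes beside the cnc and fip-5 runs were in that group too. In the runs of 2 members the non-members below 0 were 2 of 4 (abf-1), 6 of 6 (fip-3) and 3 of 5 (spp-10). They were 3 of 4 in the run of spp-27 and 1 of 1 in that of spp-6. The only non-member of all runs past 2-fold was fut-2, beside the run of spp-27. It stood at 108 with anatase and 242 without, a difference of -1.05, where spp-27 was at -0.84 and spp-19 at -0.87. The array names no genome build, so no coordinates are given.

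**Figure D3:**
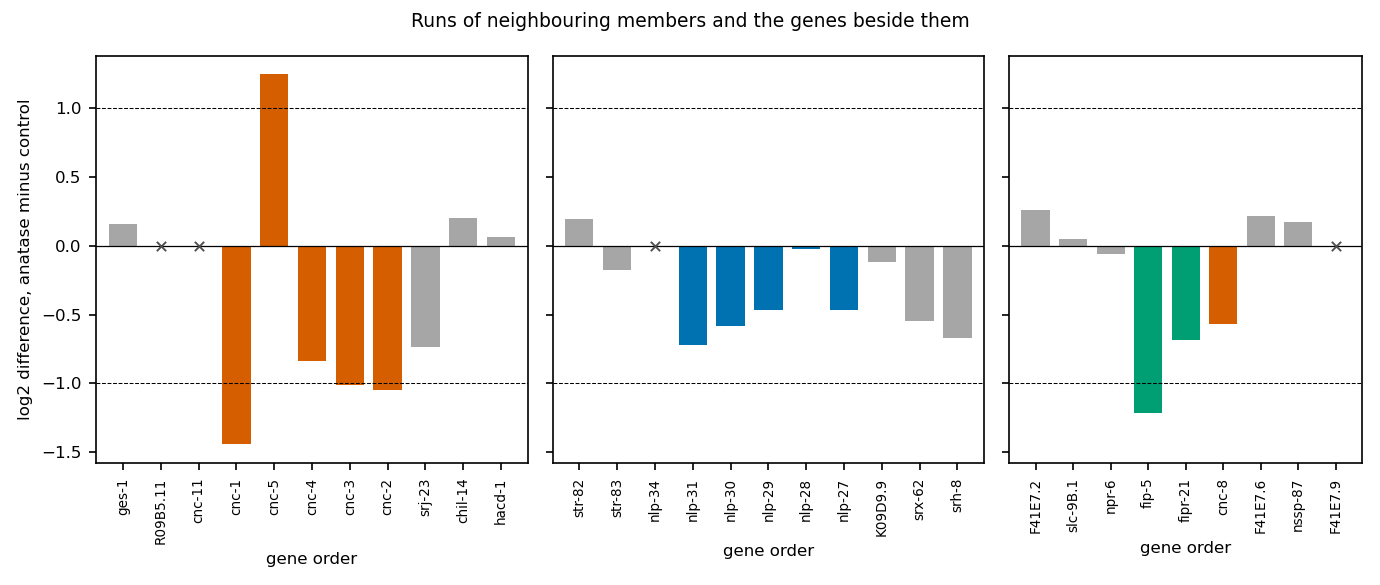
Log2 difference, anatase minus control, of the genes in the 3 runs with at least 3 members, in genome order, with the 3 next protein-coding genes on each side; coloured bars are members by family, grey bars other genes, crosses genes with no probe set naming them alone, dashed lines 2-fold. In the cnc and nlp runs 9 of 10 members lie below 0, and in the run of fip-5, fipr-21 and cnc-8 all 3 do. Most of these members were read by shared probe sets alone, so their values may hold signal of each other.

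Genes of pathways known to control these peptides were set beside them. The epidermal p38 list holds receptors, kinases, transcription factors and other genes linked to nlp-29. It does not separate genes that raise nlp-29 from any that lower it. From its 27 genes, 25 were measured. Of these 16 were lower, 0 at least 2-fold lower and 1 at least 2-fold higher, and the median was -0.08. Over all genes 54.7% were lower, 3.48% at least 2-fold lower and 1.58% at least 2-fold higher. Few genes past 2-fold would thus fall in a list of this size. Under each scaling 14 of the 25 were lower, where 47.4% to 49.5% of all genes were. The gene at least 2-fold higher was cebp-1, a C/EBP-type transcription factor, at 29.9 with anatase and 6.70 without, both near the floor. The p38 kinase gene pmk-1 stood at 303 with anatase and 404 without, a difference of -0.40, and tir-1, its upstream adaptor, at -0.30. sta-2, a STAT-like factor needed for nlp-29 induction, was at -0.44, and elt-3, a GATA factor of the epidermis, at -0.49, with 650 with anatase and 944 without. The transporter gene snf-12, which acts with sta-2, was at 0.18, the damage receptor gene dcar-1 at -0.15, and the Tribbles-like gene nipi-3 at -0.02, which turned to 0.03 with a common median. nipi-4, needed for normal expression of epidermal peptide genes and chosen here after its value was seen, was at -0.91 at low brightness, with 16.1 with anatase and 44.5 without.

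The lists in this paragraph stand beside the same shares of all genes: 54.7% lower, 3.48% at least 2-fold lower and 1.58% at least 2-fold higher. Of 12 measured genes listed for the TGF-beta (DBL-1) pathway, 6 were lower and 6 higher. None of the 12 passed 2-fold and the median was -0.07, with the ligand gene dbl-1 at 0.03. The list was not limited to genes that act on cnc-2 and pools genes whatever their direction of action, so its median is no reading of the route to cnc-2. Of 21 measured regulators of intestinal defence genes, 10 were lower (8 to 10 under the scalings) and the median was 0.05. Among them 0 were at least 2-fold lower and 1 was at least 2-fold higher (2 after loess or quantile scaling). The gene at least 2-fold higher before scaling was the endoderm factor gene end-3, a dim gene at 42.9 with anatase and 13.1 without. elt-2, the main GATA factor of the intestine, stood at 260 with anatase and 398 without, a difference of -0.60. Furrow collagens are cuticle proteins whose loss raises epidermal peptide genes. Of the 5 measured, 4 were lower and 0 past 2-fold, and the median was -0.33; 3 were lower with a common median. Among 9 measured nlp genes with numbers next to the chosen range, 7 were lower and the median was -0.18. nlp-26 at -0.99 and nlp-25 at -0.88, both chosen after their values were seen, came closest to 2-fold.

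Most markers of the epidermis and the intestine were also lower, but their medians did not follow the sizes of the family medians. Of 12 measured epidermis markers 11 were lower, with a median of -0.15, and elt-1 was higher, at 0.16. After scaling to a common median 10 were lower. Their summed intensity was 20470 with anatase and 21621 without. Of 13 intestine markers 11 were lower, with a median of -0.32 and a sum of 42652 with anatase and 50566 without. The bright ges-1 (0.16) and ifb-2 (0.12) were higher. Over all genes 54.7% were lower, or 47.4% with a common median. In the second brightest and brightest groups, which hold most markers of both lists, 50.4% and 46.5% of all genes were lower. The metallothionein gene mtl-2 was the only one of both lists past 2-fold, at -2.65. No marker of either list was at 0: the dimmest were che-14 of the epidermis, at 49.8 with anatase and 73.0 without, and elt-7 of the intestine, at 248 with anatase and 317 without; mtl-2 was lower still with anatase, at 231, but at 1582 without. The medians were 0.03 for 8 pharynx markers, 0.05 for 6 body muscle markers, 0.10 for 7 neuron markers and 0.04 for 6 germline markers. Beside the epidermis median of -0.15, the nlp and cnc families stood at -0.47 and -0.92. The spp family, some of whose products act in the gut, stood at -0.11 beside the intestine median of -0.32. The part of the epidermis and intestine markers in the lower peptide signal was not tested. The arrays themselves had medians of 117.8 with anatase and 123.1 without, and 17.98% and 15.82% of probe sets below 16.

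**Figure D4:**
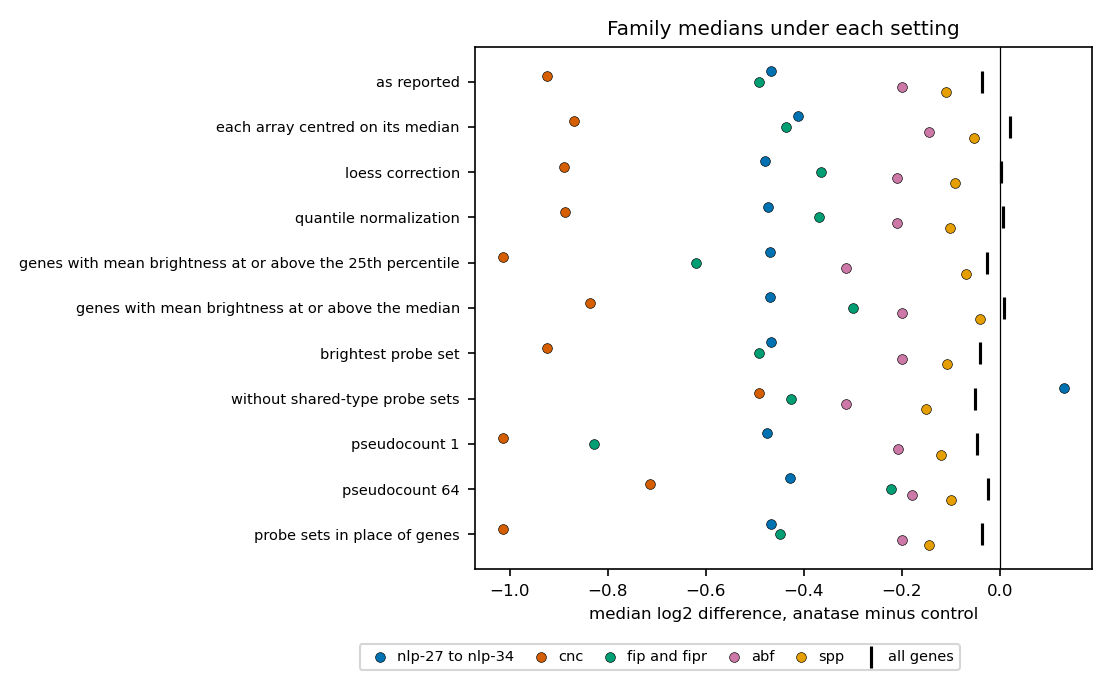
Median log2 difference, anatase minus control, of each family (points) and of all genes (black bars) under the reported setting and 10 others. The family medians lie below 0 in all settings except that of the nlp genes without shared probe sets (0.13), where only nlp-32 is left.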

How the data were processed

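The authors deposited a linear intensity for each probe set on each of 2 Affymetrix arrays (biotin-labelled cRNA from 6 μg of total RNA, per the labels' protocols). Transcriptome Analysis Console is named in the submitters' processing notes; how probes were summarised and arrays scaled is not stated in the labels or notes, and detection calls were not used. The number of arrays limits the precision.

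From 22548 probe sets, the 20766 naming exactly 1 gene were used. Intensities were turned into log2(intensity + 16), and averaged over the probe sets of a gene; printed intensities of single genes are means of probe sets. No filter on dim genes was applied. Gene order came from a RefSeq table of WBcel235, where all 51 members were found by symbol. The rule for members named with values took those at or above the median brightness, past 2-fold, with more than 1 probe set, or among the 3 largest differences of their family; cnc-6, nlp-32, abf-2, spp-7 and spp-12 are printed beside them, chosen after their values were seen. Genes outside the members were named where past 2-fold in a list or from a list of 9 control genes. The genes nipi-4, nlp-25, nlp-26, fut-2, che-14, elt-7, elt-1, ges-1 and ifb-2 were chosen after their values were seen. Members and lists were chosen with earlier results of these data known. Alternatives were other scalings, brightness filters, probe set choices, pseudocounts and thresholds. The steps were tested on simulated data. Tools were matplotlib 3.10.9, statsmodels 0.14.6, scipy 1.17.1, pandas 2.3.3 and numpy 2.4.6 in Python 3.11.15.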

Additional observations from a re-analysis of the deposited data

How the results depend on the processing

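No paired analysis was possible because only 1 array of each condition was analysed here. The median over the members lay between -0.47 and -0.21 and the family medians kept their sign in the 10 settings run, except that the nlp median was 0.13 without shared probe sets, where nlp-32 alone is left; the cnc median was then -0.49. The number of members at least 2-fold lower was 4 under each of the 3 scalings, which cnc-2 and cnc-3 no longer passed, where 2.28% to 2.88% of all genes were. It was 3 with genes at or above the median brightness (0.409% of all genes) and 1 of 30 once shared probe sets were left out, below the 4.13% of all genes there. It was 12 and 1 with pseudocounts of 1 and 64 (10.3% and 0.140% of all genes), 16 at 1.5-fold (11.2%) and 0 at 3-fold (0.444%). The number at least 2-fold higher was 0 with the filters at the 25th percentile and the median of brightness (0.444% and 0.210% of all genes). It was also 0 with a pseudocount of 64 (0.0701%) and at 3-fold (0.134%). It was 2 of 51 with a pseudocount of 1 (5.75% of all genes) and at 1.5-fold (5.63%), below both shares. The number lower by any amount was 21 of 29 with genes at or above the median brightness (48.4% of all genes). It was 21 of 30 without shared probe sets (56.1%), and both settings compared fewer genes. Of the 51 members, nlp-28, spp-31, abf-2, spp-12 and fipr-14 changed sign with a scaling and spp-1 with the choice of probe set. Dim members moved widely with the pseudocount, as fip-3 (0.29 to 2.20), cnc-5 (0.52 to 2.39) and cnc-1 (-2.20 to -0.72).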
